A study of Mus musculus with 6 samples.

Results

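The genes described here carry glucose into the cell, break it down to pyruvate and lactate, divert part of it into the pentose phosphate pathway, or control the entry of pyruvate into the mitochondrion. They were taken from the count files by symbol, from a list of 38 genes made for this description, and all 38 symbols were found among the 23238 symbols of the files. Of these, 36 had enough counts to be tested, Fbp1 was below the filter on low counts, and Eno1 was listed at 0 in every library. RNA came from cells labelled as mouse embryonic stem cells (strain 129/Ola) and was read as 3′ tags, in which a transcript is read near its 3′ end. The control line was a stable line with EGFP and the experimental line a stable line with EWS-OCT4A fused to GFP, both made in cells that the labels call Niwa, with 3 libraries per line. Both lines were grown with LIF and both received doxycycline at 1 µg/ml, given per the labels to lower the cells' own OCT-4. Each line is a single stable line, and whether it is 1 clone is not given in the sources used here. Below, a gene that rose had more RNA with EWS-OCT4 than with EGFP, and a gene that fell had less. No library without doxycycline was analysed here. Separate cultures are not named in the labels, and p-values therefore measure only how far these libraries spread, which may be technical.

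Glucose enters cells through facilitative transporters of the Slc2a family, is trapped by hexokinase and is split and oxidised to pyruvate in glycolysis. Lactate dehydrogenase interconverts pyruvate and lactate, and monocarboxylate transporters of the Slc16a family carry lactate across the plasma membrane. Pyruvate dehydrogenase turns pyruvate into acetyl-CoA and is switched off by the pyruvate dehydrogenase kinases, while the pentose phosphate pathway makes NADPH and ribose for nucleotides. Mouse embryonic stem cells are known for high glycolytic flux even in oxygen, and trophoblast is known for carrying glucose and lactate between mother and embryo.

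Levels are in CPM, counts scaled to library size with TMM factors, given for replicates 1, 2 and 3 in that order, or as mean ± SD with n = 3 per line. Depth was 10978025 to 14935887 counts per library. The share of counts from these genes was 0.615% to 0.660% with EGFP and 0.681% to 0.741% with EWS-OCT4. Rn45s, the ribosomal RNA precursor, took 5.85% to 6.44% and 7.36% to 10.5% of counts, and with it left out of the fit the same numbers of these genes, 25 and 6, rose and fell. Pou5f1, the gene of OCT-4, had 5, 13 and 10 counts with EGFP and 18, 21 and 36 with EWS-OCT4, or 0.645 ± 0.270 CPM and 2.21 ± 0.720 CPM, and Ewsr1 at 100.4 ± 8.45 CPM and 83.7 ± 25.7 CPM. Whether tags of the fusion are counted at either gene is not known, so these values do not check the labels. The libraries numbered 3 stood apart from the others. Comparing counts over genes, chi-square divided by its degrees of freedom was 23.7 to 32.3 between them and numbers 1 and 2, and 3.96 and 4.21 between numbers 1 and 2. Cell type markers also moved between the lines. The 8 stem cell markers were all higher in the EWS-OCT4 line, with summed levels of 262 to 317 CPM in the EGFP line and 4422 to 4946 CPM in the EWS-OCT4 line. The 11 trophoblast markers were all lower, at 4743 to 5396 CPM against 253 to 279 CPM, and Plac1, Prl3d1 and Tpbpa had no count there. Both lines are labelled as embryonic stem cells, and the EGFP line had low levels of these markers relative to the EWS-OCT4 line, Dppa5a being its highest (159 to 182 CPM). Primitive endoderm markers summed to 103 to 123 CPM against 5.46 to 6.36 CPM, and fibroblast markers to 12.3 to 16.3 CPM against 20.4 to 27.1 CPM. Of the 6 primitive endoderm markers 3 fell, among them Dab2 and Gata6, the highest with EGFP (79.5 ± 6.19 and 31.2 ± 5.34 CPM). Gata4 rose (0.143 ± 0.150 to 2.08 ± 0.213 CPM), and Sox7 and Sox17 were not tested. Of the 6 fibroblast markers Thy1 rose (0.636 ± 0.489 to 17.9 ± 1.45 CPM), Postn fell from 9.16 ± 0.845 CPM to no count, and the other 4 did not pass or were not tested. The 3 blood markers, none of which passed, summed to 1.33 to 5.82 CPM and 1.29 to 14.9 CPM. The part of these markers in the results was not tested, and in bulk RNA fewer cells of a type and less RNA per cell cannot be told apart.

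Most enzymes of glycolysis were higher in the EWS-OCT4 line, while the glucose transporter Slc2a1, the lactate transporter Slc16a1 and the ribose-5-phosphate isomerase Rpia were lower. Of the 36 tested genes, 25 rose, 6 fell and 5 did not pass an adjusted p of 0.05 (edgeR's quasi-likelihood test, adjusted over all genes tested). Of all 13467 genes tested, 67.4% passed, made up of 33.3% that were higher and 34.1% that were lower with EWS-OCT4. The corresponding shares among the tested genes of the list were 86.1% called and 69.4% higher. The median log2 fold change was 0.92 over these genes and 0.00 over all genes tested, and the median size of a change was 1.12 and 0.93. A called change of at least 2-fold was found for 20 genes (15 higher, 5 lower), or 55.6%, against 45.4% of all genes tested. The libraries of the lines did not overlap for 33 of the 36 genes (91.7%), against 72.7% of all genes tested. With the libraries numbered 1 and 2 alone, 28 of 35 tested genes rose and 7 fell, while 5092 of all 13538 genes tested there rose and 5148 fell. Counts over the list describe these genes, and no test was made of the list as a set. The list was not random, and earlier results of these data were known when it was made.

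**Figure D1:**
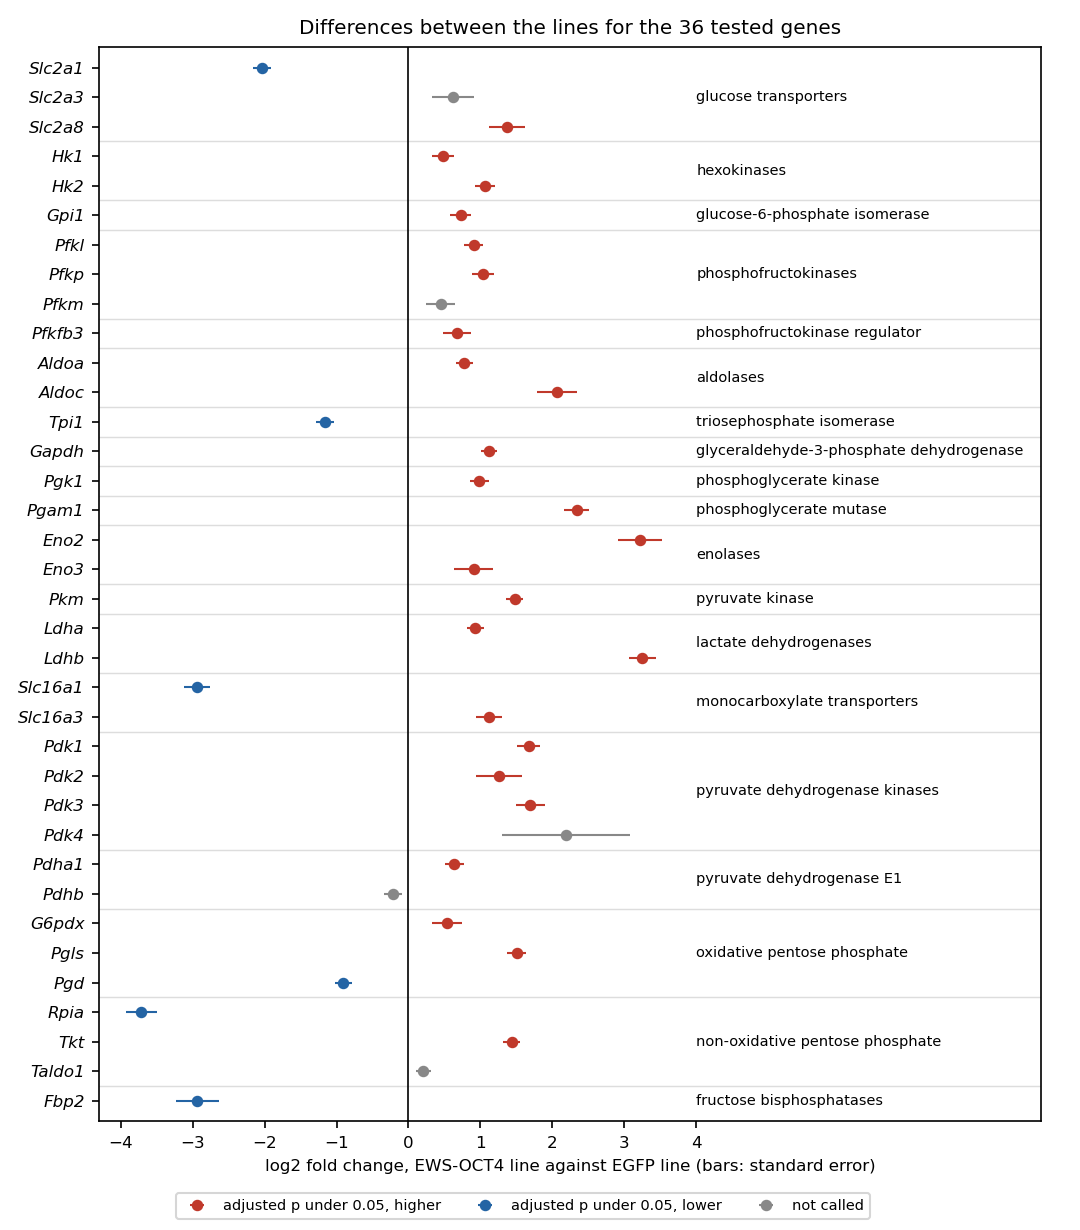
Log2 fold change of the 36 tested genes (x axis, EWS-OCT4 line against EGFP line, bars give the standard error), ordered by role on the y axis and coloured by whether they passed. The 25 genes that rose lie on the right, and the 6 that fell (Slc2a1, Tpi1, Slc16a1, Pgd, Rpia and Fbp2) lie on the left.

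The promoters of the 4 genes with the largest rise and the 4 with the largest fall at a mean of at least 10 CPM are shown. They were picked by the size of their called fold change alone. Each runs 5′ to 3′ from 250 bases before to 50 bases after a RefSeq transcript start (GRCm38.p6). For Aldoc, which has several starts, the one farthest upstream is given. Capitals mark matches, on either strand, to ACGTG and GCGTG, the core letters of the site bound by hypoxia-inducible factors, to the E-box CACGTG and to the octamer ATGCAAAT. The E-box contains ACGTG on both strands.
Ldhb (chr6:142507908-142508207, minus strand): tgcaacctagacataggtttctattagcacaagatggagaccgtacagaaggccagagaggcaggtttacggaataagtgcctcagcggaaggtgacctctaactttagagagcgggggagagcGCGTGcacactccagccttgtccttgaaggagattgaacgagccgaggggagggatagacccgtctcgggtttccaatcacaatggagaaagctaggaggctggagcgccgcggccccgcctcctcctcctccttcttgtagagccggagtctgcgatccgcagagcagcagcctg
Pgam1 (chr19:41911621-41911920, plus strand): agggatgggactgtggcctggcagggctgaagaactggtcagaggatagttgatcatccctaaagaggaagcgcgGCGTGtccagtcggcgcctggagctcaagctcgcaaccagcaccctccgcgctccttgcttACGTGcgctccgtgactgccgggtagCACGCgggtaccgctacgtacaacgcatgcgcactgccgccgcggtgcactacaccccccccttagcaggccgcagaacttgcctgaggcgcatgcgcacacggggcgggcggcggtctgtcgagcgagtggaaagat
Aldoc (chr11:78322823-78323122, plus strand): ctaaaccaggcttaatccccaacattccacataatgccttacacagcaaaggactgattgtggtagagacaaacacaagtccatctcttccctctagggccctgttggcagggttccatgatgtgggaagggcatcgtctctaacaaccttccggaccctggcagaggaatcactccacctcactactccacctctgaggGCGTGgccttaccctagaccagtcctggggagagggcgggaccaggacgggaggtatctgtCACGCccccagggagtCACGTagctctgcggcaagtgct
Pdk3 (chrX:93832101-93832400, minus strand): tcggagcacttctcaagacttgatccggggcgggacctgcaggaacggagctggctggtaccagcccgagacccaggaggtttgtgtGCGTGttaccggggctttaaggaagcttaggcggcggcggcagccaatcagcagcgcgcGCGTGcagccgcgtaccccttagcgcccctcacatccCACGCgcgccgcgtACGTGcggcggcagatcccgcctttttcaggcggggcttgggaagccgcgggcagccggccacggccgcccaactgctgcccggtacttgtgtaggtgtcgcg
Rpia (chr6:70792126-70792425, minus strand): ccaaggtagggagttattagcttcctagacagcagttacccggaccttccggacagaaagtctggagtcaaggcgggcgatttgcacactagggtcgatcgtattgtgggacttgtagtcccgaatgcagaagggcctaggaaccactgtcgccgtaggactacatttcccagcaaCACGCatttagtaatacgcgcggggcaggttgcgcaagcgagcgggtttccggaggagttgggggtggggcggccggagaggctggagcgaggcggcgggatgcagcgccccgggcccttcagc
Slc16a1 (chr3:104638414-104638713, plus strand): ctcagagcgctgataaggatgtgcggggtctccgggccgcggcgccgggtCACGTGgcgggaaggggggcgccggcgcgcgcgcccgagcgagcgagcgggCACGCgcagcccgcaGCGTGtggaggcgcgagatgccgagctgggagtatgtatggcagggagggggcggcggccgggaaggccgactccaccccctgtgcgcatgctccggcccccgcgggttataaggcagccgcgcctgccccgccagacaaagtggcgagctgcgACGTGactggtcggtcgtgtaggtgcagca
Fbp2 (chr13:62858351-62858650, minus strand): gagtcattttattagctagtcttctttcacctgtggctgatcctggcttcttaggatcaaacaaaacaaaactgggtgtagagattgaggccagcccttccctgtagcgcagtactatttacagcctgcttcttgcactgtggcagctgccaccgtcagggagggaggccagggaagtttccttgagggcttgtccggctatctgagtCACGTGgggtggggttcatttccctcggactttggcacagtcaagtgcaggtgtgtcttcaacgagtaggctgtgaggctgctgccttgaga
Slc2a1 (chr4:119108495-119108794, plus strand): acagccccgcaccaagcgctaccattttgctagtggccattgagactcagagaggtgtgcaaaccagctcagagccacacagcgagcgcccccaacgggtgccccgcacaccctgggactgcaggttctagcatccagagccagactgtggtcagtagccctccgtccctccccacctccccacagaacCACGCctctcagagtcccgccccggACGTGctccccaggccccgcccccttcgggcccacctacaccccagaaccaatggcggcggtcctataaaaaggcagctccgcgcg

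The table of promoters held 37 of the 38 genes, with 52 starts. ACGTG was found at 22 of these 52 starts (42.3%) and at 19.6% of all 32851 promoters of the same length. GCGTG was found at 31 (59.6%, against 32.4% of all) and CACGTG at 6 (11.5%, against 7.15%). The octamer, the letters that OCT-4 binds, was found only at a start of Pfkfb3 (1.92%, against 1.74%). ACGTG stood at 16 of the 34 starts of genes that rose and at 3 of the 7 starts of genes that fell, GCGTG at 19 and 4, and CACGTG at 3 and 2. Of the printed promoters, those of Slc16a1 and Fbp2 held the E-box. These matches are a description of the letters and were not tested, and base composition was not matched.

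The glucose transporters moved apart. Slc2a1 (GLUT1), the widely expressed transporter for basal glucose uptake (chromosome 4, 119108711 to 119137983), was at 1513, 1497 and 1469.5 CPM in the EGFP line and at 389.7, 392.2 and 308 CPM in the EWS-OCT4 line. It was high in every EGFP library, and the lines did not overlap. It fell 4.11-fold (log2 fold change -2.04, SE 0.13, adjusted p = 5.0e-07 by edgeR). Slc2a3 (GLUT3), a transporter with high affinity for glucose, was at 361, 374 and 881 CPM in the EGFP line and at 873, 833 and 782 CPM in the EWS-OCT4 line. EGFP replicate 3 was above every EWS-OCT4 library and far above the other 2 of its line. Over all libraries the difference was 0.62 (SE 0.30, adjusted p = 0.0864 by edgeR), and without EGFP replicate 3 it was 1.17 (adjusted p = 3.6e-05). Without EGFP replicate 1 or 2 it was 0.39 and 0.40 and did not pass. It passed with upper-quartile scaling (adjusted p = 0.0446), limma-voom (0.034) and DESeq2 (0.0488). Slc2a8, a transporter found mainly inside the cell, rose from 4.69 ± 1.05 to 12.1 ± 0.839 CPM (2.58-fold, adjusted p = 7.4e-04 by edgeR). The summed level of the 3 transporters was 1874 to 2357 CPM in the EGFP line and 1101 to 1276 CPM in the EWS-OCT4 line.

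**Figure D2:**
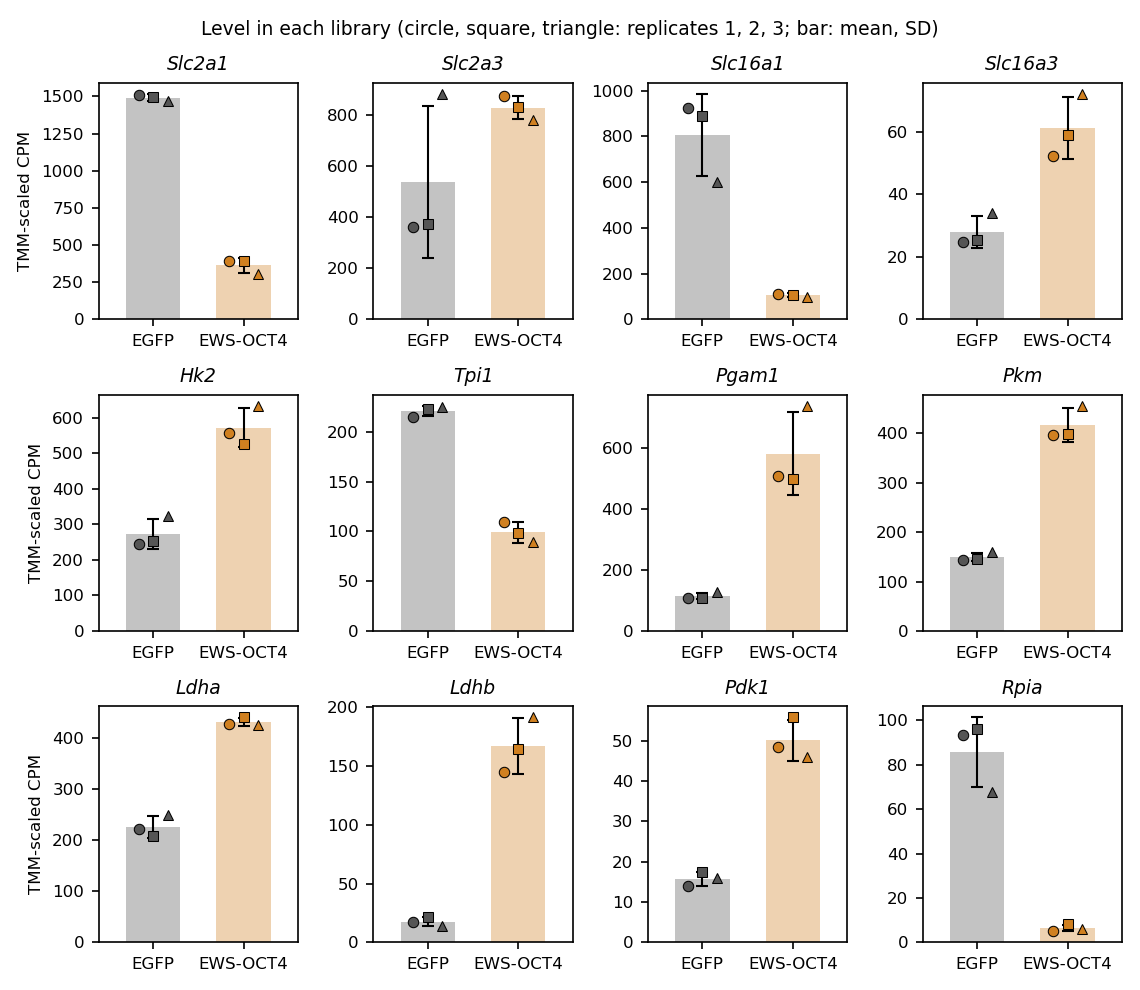
Level of 12 of the genes in each library (y axis, TMM-scaled CPM from 0, symbols mark the replicates) with the mean and SD of each line. The 3 EGFP values of Slc2a1 and of Slc16a1 lie above all EWS-OCT4 values, and EGFP replicate 3 of Slc2a3 (881 CPM) lies at the level of the EWS-OCT4 values.

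The enzymes of the upper part of glycolysis were higher in the EWS-OCT4 line. Hk2, the inducible hexokinase, was at 245, 254 and 322 CPM in the EGFP line and 558, 524 and 633 CPM in the EWS-OCT4 line, with no overlap, and rose 2.09-fold (log2 fold change 1.06, SE 0.14, adjusted p = 8.0e-05 by edgeR). Hk1, the hexokinase of most tissues, rose less, from 52.2 ± 7.67 to 72.8 ± 8.84 CPM (1.39-fold, adjusted p = 0.0209 by edgeR), and it lost the call without EGFP replicate 1, EGFP replicate 2 or EWS-OCT4 replicate 2 (adjusted p = 0.0613, 0.103 and 0.0646). Gpi1, which turns glucose 6-phosphate into fructose 6-phosphate, rose from 162 ± 19.5 to 268 ± 37.5 CPM. All libraries of the EWS-OCT4 line were above those of the EGFP line for these 3 genes.

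Phosphofructokinase commits sugar to glycolysis, and its subunits come from 3 genes. Pfkl, the liver-type subunit, was at 66.5, 62.4 and 64.6 CPM in the EGFP line and at 109.8, 114 and 139 CPM in the EWS-OCT4 line. Pfkp, the platelet-type subunit, was at 57.8, 53.2 and 54.7 CPM and at 99.9, 103 and 137 CPM. Both rose, 1.88-fold and 2.05-fold, with no overlap between lines (adjusted p = 1.7e-04 for each by edgeR). Pfkm, the muscle-type subunit, was at 22.9 ± 4.31 and 31.2 ± 5.63 CPM (log2 fold change 0.45, SE 0.20, adjusted p = 0.0691 by edgeR), and its libraries overlapped. It passed without EGFP replicate 3 (0.59, adjusted p = 0.0342) and without EWS-OCT4 replicate 3 (0.59, adjusted p = 0.0163). Pfkfb3, an enzyme that makes the activator fructose 2,6-bisphosphate, rose from 8.196 ± 0.386 to 13.1 ± 0.718 CPM. The 3′ end of Pfkp lies within Pitrm1 on the other strand (100% of its 3′ stretches, as described for enolase). How strand was used in counting is not given in the sources used here, so tags of Pfkp and Pitrm1 cannot be told apart. Pitrm1 was itself higher, at 40.7 ± 6.16 and 55.1 ± 4.31 CPM.

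The aldolases rose and the triosephosphate isomerase fell. Aldoa, the main aldolase of glycolysis, was at 771, 756 and 735 CPM in the EGFP line and at 1219.7, 1196 and 1456 CPM in the EWS-OCT4 line (1.71-fold, log2 fold change 0.78, SE 0.12, adjusted p = 1.9e-04 by edgeR). Aldoc, the aldolase known from brain, rose 4.17-fold, from 7.31, 5.75 and 12.4 CPM to 34.2, 30.8 and 41.7 CPM. Tpi1, which interconverts the triose phosphates, was at 215, 223 and 224 CPM in the EGFP line and at 109.3, 98.4 and 89.1 CPM in the EWS-OCT4 line. It was high in every EGFP library and fell 2.23-fold (-1.16, SE 0.12, adjusted p = 1.5e-05 by edgeR), the only fall among the 17 tested genes of the list from hexokinase to lactate dehydrogenase. Its 3′ end overlaps Spsb2 on the other strand, and Spsb2 also fell, from 39.6 ± 0.949 to 7.01 ± 0.413 CPM. Tpi1 shared 0% of its 3′ stretches with other genes (as described for enolase). That count covers only the end of its longest coding transcript, so whether tags of Tpi1 and Spsb2 were kept apart is not known.

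The enzymes of the lower part of glycolysis rose. Gapdh, the dehydrogenase that makes NADH, rose from 87.0, 82.7 and 80.4 CPM to 193, 173 and 179 CPM (2.18-fold, adjusted p = 1.4e-05 by edgeR). Pgk1, which makes the first ATP of the pathway, rose from 63.8 ± 7.79 to 126 ± 8.19 CPM (1.98-fold). Pgam1, the phosphoglycerate mutase (chromosome 19, 41911923 to 41918660), was at 108.2, 108.2 and 127 CPM in the EGFP line and at 507, 496 and 738 CPM in the EWS-OCT4 line. It rose 5.07-fold (log2 fold change 2.34, SE 0.17, adjusted p = 1.5e-06 by edgeR), and EWS-OCT4 replicate 3 was the highest library. Pkm, the pyruvate kinase of embryonic and proliferating cells, rose from 144, 145 and 159.6 CPM to 397, 398 and 456 CPM (2.78-fold, adjusted p = 2.3e-06 by edgeR). Counts per symbol do not separate its M1 and M2 isoforms. The 18 enzyme genes from hexokinase to lactate dehydrogenase, fructose 2,6-bisphosphate control left out, summed to 2276 ± 103.5 CPM in the EGFP line and to 4531 ± 460.1 CPM with EWS-OCT4 (ratio 1.99). Eno1 enters this sum at 0, and Eno1b, where its tags may be counted, is not part of it.

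Enolase could be read only in part. Eno1, the main enolase of embryonic cells, had no count in any library, and this 0 sets no limit on its level, because its tags may be counted elsewhere. Of the 50-base stretches in the last 300 bases of its longest coding transcript, 90.04% also occur in Eno1b, a retrogene copy. Eno1b stood on 2 lines of each file, with 1238 and 1270 counts in EGFP replicate 1 and 2650 and 2679 in EWS-OCT4 replicate 1. The sum of its lines rose from 183 ± 5.88 to 459 ± 67.3 CPM (log2 fold change 1.33, SE 0.13, adjusted p = 1.2e-05 by edgeR), and whether these tags came from Eno1 or Eno1b cannot be told apart. Eno2, the enolase of neurons, rose 9.31-fold from 1.04, 1.89 and 1.95 CPM to 17.0, 12.7 and 16.3 CPM. Eno3, the enolase of muscle, rose from 4.89 ± 0.940 to 9.19 ± 1.602 CPM, and lost the call without EGFP replicate 2 or EWS-OCT4 replicate 2 (adjusted p = 0.0555 and 0.0543 by edgeR). Gapdh shares 82.9% of its 3′ stretches with other annotated transcripts, 99 genes in all, so its level is uncertain. Of 12 listed near-identical copies and retrogenes of these genes, 8 were in the files and 2 were tested, of which 1, Eno1b, rose. Of the 38 genes, 31 shared no such stretch, and Aldoa, Ldhb, Pdha1 and G6pdx shared 0.797% to 21.1%.

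Both lactate dehydrogenase genes rose, and Ldhb rose more. Ldha, the subunit that favours lactate formation, was at 222, 208 and 249.5 CPM in the EGFP line and at 428, 441 and 426 CPM in the EWS-OCT4 line (1.91-fold, log2 fold change 0.93, SE 0.11, adjusted p = 4.8e-05 by edgeR). Ldhb, the subunit known from heart (chromosome 6, 142490249 to 142507957), was at 17.1, 21.7 and 13.9 CPM and at 145, 165 and 192 CPM. It rose 9.53-fold (3.25, SE 0.19, adjusted p = 3.7e-07 by edgeR) and was low in every EGFP library. The ratio of Ldha to Ldhb counts was 12.96, 9.58 and 17.97 with EGFP and 2.96, 2.68 and 2.22 with EWS-OCT4.

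The monocarboxylate transporters moved in opposite directions. Slc16a1 (MCT1), a carrier of lactate and pyruvate (chromosome 3, 104638668 to 104658462), was at 925, 890.4 and 600.1 CPM in the EGFP line and at 113, 106 and 96.0 CPM in the EWS-OCT4 line. EGFP replicate 3 was the lowest of its line but above all EWS-OCT4 libraries. The gene fell 7.67-fold (log2 fold change -2.94, SE 0.18, adjusted p = 4.2e-07 by edgeR). Slc16a3 (MCT4), a carrier known for lactate export from glycolytic cells, rose 2.18-fold from 24.8, 25.5 and 34.0 CPM to 52.4, 59.1 and 72.0 CPM (1.12, SE 0.18, adjusted p = 3.3e-04 by edgeR). Their summed level was 634 to 950.3 CPM in the EGFP line and 165 to 168 CPM in the EWS-OCT4 line. Of 8 other genes of lactate and pyruvate transport, 5 were tested, 4 fell and none rose. Of all genes tested, 34.1% fell and 33.3% rose. The median log2 fold change was -1.14 for the 5, against 0.00 over all genes tested. Bsg, the glycoprotein that brings these carriers to the membrane, fell from 538 ± 59.95 to 128 ± 7.27 CPM, and Emb, a related partner, from 20.3 ± 1.49 to 9.23 ± 2.41 CPM. The subunits of the mitochondrial pyruvate carrier also fell, Mpc1 from 27.8 ± 7.77 to 7.94 ± 2.06 CPM and Mpc2 from 69.8 ± 8.37 to 35.5 ± 3.59 CPM. The gene that did not pass was Ldhc, at 1.68 ± 0.419 and 1.67 ± 0.666 CPM.

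The kinases that switch off pyruvate dehydrogenase were higher in the EWS-OCT4 line. Pdk1 was at 13.9, 17.3 and 15.9 CPM in the EGFP line and at 48.4, 55.8 and 46.0 CPM in the EWS-OCT4 line (3.18-fold, log2 fold change 1.67, SE 0.16, adjusted p = 8.8e-06 by edgeR). Pdk3 was at 9.99, 10.5 and 15.02 CPM and at 37.5, 34.4 and 43.0 CPM (3.23-fold, 1.69, SE 0.20, adjusted p = 3.9e-05 by edgeR). The lines did not overlap for either gene. Pdk2 rose from 3.45 ± 0.876 to 8.28 ± 1.91 CPM. Pdk4, the kinase known to respond to fasting, had 10, 3 and 0 counts with EGFP and 9, 27 and 12 with EWS-OCT4 (2.19, SE 0.89, adjusted p = 0.0503 by edgeR), which is too few for a firm statement. Without EGFP replicate 1 its difference was 3.69 (adjusted p = 0.0165) and without EWS-OCT4 replicate 2 it was 1.54 (adjusted p = 0.231).

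Genes of the pyruvate dehydrogenase complex itself changed in both directions. Pdha1, the X-linked alpha subunit of the E1 enzyme, rose from 115 ± 17.7 to 179.6 ± 7.08 CPM (1.56-fold, adjusted p = 0.00195 by edgeR), with the exons of Map3k15 overlapping its 3′ end on the other strand. Map3k15 also rose, from 27.2 ± 4.45 to 41.5 ± 7.14 CPM. Pdhb, the beta subunit, was at 109.8 ± 8.003 and 94.5 ± 7.62 CPM (log2 fold change -0.22, SE 0.12, adjusted p = 0.1475 by edgeR) and its libraries overlapped. It passed, as lower, only with the libraries numbered 1 and 2 alone (adjusted p = 0.0184 by edgeR). Of 7 other genes of the complex and its phosphatases, 6 were tested, 1 rose, 2 fell and 3 did not pass (median 0.245), where 67.4% of all genes tested passed. Dld, the E3 subunit, fell from 95.98 ± 3.36 to 35.98 ± 3.46 CPM and Pdhx, the E3-binding protein, from 86.8 ± 7.68 to 49.5 ± 3.02 CPM. Pdp1, a phosphatase that switches the complex on, rose from 3.10 ± 1.29 to 7.03 ± 2.12 CPM.

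The pentose phosphate genes changed in both directions within each arm. In the oxidative arm, Pgls, which hydrolyses the lactone, was at 57.1, 56.5 and 55.3 CPM in the EGFP line and at 139, 166 and 174 CPM in the EWS-OCT4 line (2.84-fold, log2 fold change 1.505, SE 0.13, adjusted p = 4.3e-06 by edgeR). Pgd, the second NADPH-producing enzyme, fell 1.87-fold, from 259, 261 and 234 CPM to 132, 123 and 147 CPM (-0.91, SE 0.12, adjusted p = 7.8e-05 by edgeR). G6pdx, the rate-limiting first enzyme, was at 11.2 ± 2.20 and 16.3 ± 1.34 CPM (0.54, SE 0.21, adjusted p = 0.041 by edgeR). Its call was lost without EGFP replicate 1 or 2 or any 1 of the EWS-OCT4 libraries (adjusted p = 0.0638 to 0.155 by edgeR). In all, G6pdx lost the call in 9 of 18 alternatives, among them scaling by library totals alone and the fit with no filter. Pgls overlaps Fam129c on the same strand at its annotated 3′ end, where Fam129c stood at 1.67 ± 0.485 and 4.59 ± 1.21 CPM. Pgls shared 0% of its 3′ stretches with other genes. That count covers only the end of its longest coding transcript, so whether tags of Pgls and Fam129c were kept apart is not known.

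In the non-oxidative arm, Rpia, which makes ribose 5-phosphate from ribulose 5-phosphate (chromosome 6, 70765720 to 70792232), had the largest fall of the tested genes in the list. It was at 93.4, 96.1 and 67.6 CPM in the EGFP line and at 5.26, 8.22 and 6.13 CPM in the EWS-OCT4 line, 13.1-fold lower (log2 fold change -3.71, SE 0.22, adjusted p = 3.8e-07 by edgeR). The groups were far apart, although EGFP replicate 3 was the lowest of its line. Tkt, the transketolase that links the pathway to glycolysis, rose 2.70-fold from 82.1, 82.8 and 94.2 CPM to 222, 248 and 230.4 CPM (1.43, SE 0.12, adjusted p = 3.2e-06 by edgeR). Taldo1, the transaldolase, was at 281 ± 7.81 and 323 ± 13.6 CPM (0.20, SE 0.10, adjusted p = 0.109 by edgeR). Its libraries did not overlap, and it passed in 3 of 18 alternatives, among them upper-quartile scaling (0.37, adjusted p = 0.0112 by edgeR). Of 10 other genes of the pathway, 8 were tested, 1 rose, 2 fell and 5 did not pass (median -0.14), where 67.4% of all genes tested passed. Prps1, which turns ribose 5-phosphate into the precursor of nucleotides, rose from 60.9 ± 17.2 to 317 ± 49.9 CPM. Rpe, the epimerase beside Rpia in the pathway and named after its values were seen, was at 41.3 ± 3.22 and 45.9 ± 4.33 CPM and did not pass.

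Fructose bisphosphatase runs the phosphofructokinase step backwards. Fbp2, the muscle form, was at 25.5, 22.5 and 35.2 CPM in the EGFP line and at 5.26, 2.68 and 2.94 CPM in the EWS-OCT4 line, 7.66-fold lower (log2 fold change -2.94, SE 0.30, adjusted p = 1.4e-05 by edgeR). Fbp1, the liver form, had 6, 25 and 10 counts with EGFP and 6, 3 and 2 with EWS-OCT4, and was not tested. Of 36 other genes of glycolysis and gluconeogenesis, 23 were tested, 7 rose, 3 fell and 13 did not pass (median 0.26). Fewer than the 67.4% of all genes passed here, and the share that rose was no higher than the 33.3% of all genes. Gapdhs, the dehydrogenase known from sperm and named after its values were seen, was among those that fell, with 23, 16 and 38 counts with EGFP and 0, 0 and 1 with EWS-OCT4. Pck2, the mitochondrial carboxykinase that makes phosphoenolpyruvate, rose from 4.10 ± 2.27 to 30.8 ± 2.43 CPM, and Pcx, which carboxylates pyruvate, from 8.08 ± 0.559 to 26.1 ± 2.38 CPM. Minpp1, an inositol phosphatase that also acts on bisphosphoglycerate, rose from 9.77 ± 2.00 to 21.1 ± 5.25 CPM. Slc37a4, the glucose 6-phosphate transporter of the endoplasmic reticulum, fell from 10.3 ± 1.53 to 3.80 ± 0.712 CPM.

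**Figure D3:**
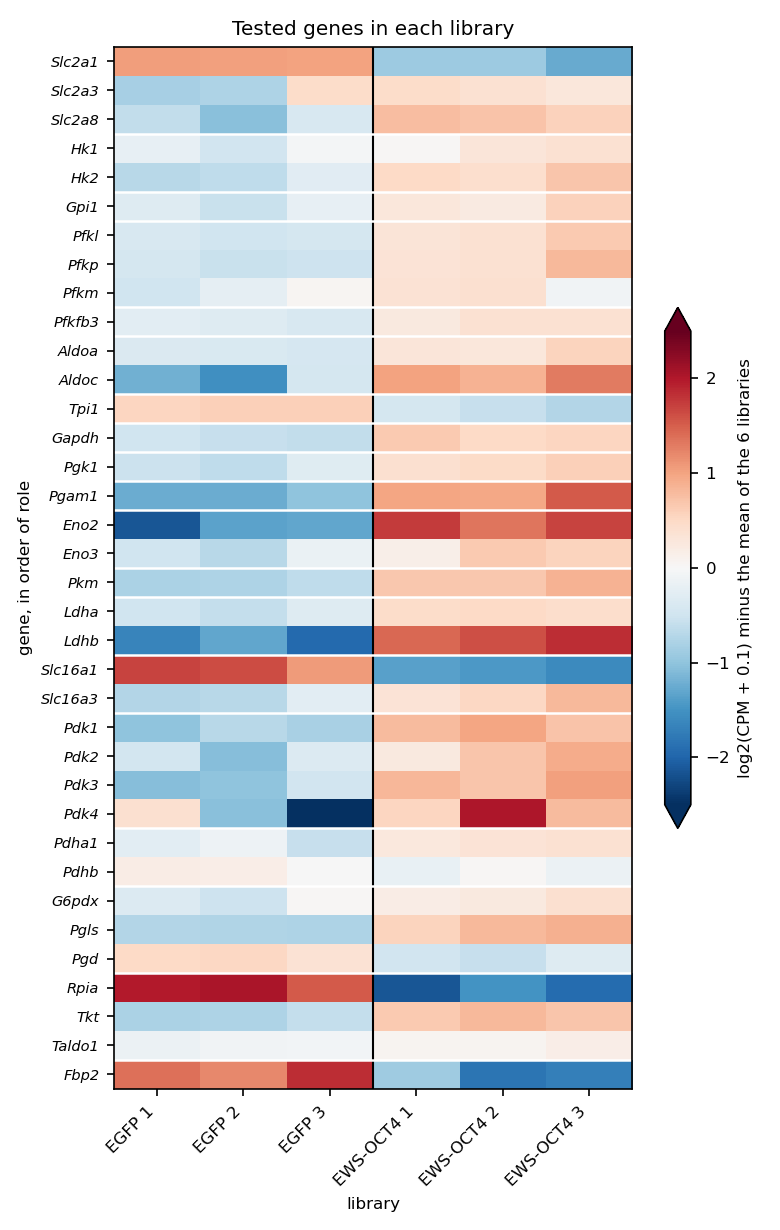
Heat map of the 36 tested genes (rows, in order of role) in the 6 libraries (columns), as log2(CPM + 0.1) minus the mean of the gene over the libraries. A black line separates the lines, values beyond 2.5 in either direction share the end colours, and EGFP replicate 3 of Slc2a3 takes the colour of the EWS-OCT4 libraries.

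EGFP replicate 3 differed from replicates 1 and 2 of its line by more than 0.5 on the log2 scale for 6 of the 36 genes, and for 25.6% of all genes tested. Over the tested genes its median difference was 0.17 on the log2 scale, against 0.01 over all genes tested. The highest difference was that of Slc2a3 (1.26), followed by Aldoc (0.92), and the lowest apart from the sparse Pdk4 was that of Slc16a1 (-0.60). In EWS-OCT4 replicate 3 the differences ran from -0.47 to 0.56, and Pgam1 was the only gene past 0.5, against 31.4% of all genes tested. The stem cell markers summed to 317 CPM in EGFP replicate 3 and to 262 and 268 CPM in the other EGFP libraries. The trophoblast markers summed to 4743 CPM there and to 5396 and 5334 CPM in the others, but single markers went both ways. Cdx2 (22.6, 24.1 and 37.5 CPM) and Eomes (62.0, 53.4 and 84.2 CPM) were highest in EGFP replicate 3. Others were lowest there, among them Krt8 (1919, 1860 and 1492 CPM) and Prl3d1 (39.8, 43.8 and 4.75 CPM). The part of the stem cell and trophoblast markers in the difference was not tested.

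Ratios of 2 genes within a library do not depend on how libraries are scaled, and 14 pairs were compared. A ratio's own size depends on how each 3′ end is counted, so only its change between lines is read. The log2 ratio of Slc16a1 to Slc16a3 went from 4.83 ± 0.598 in the EGFP line to 0.79 ± 0.350 with EWS-OCT4 (difference -4.04). For Slc2a1 to Slc2a3 it went from 1.602 ± 0.749 to -1.20 ± 0.133 (difference -2.80). For Ldha to Ldhb the difference was -2.33, for Aldoa to Aldoc -1.36 and for Hk1 to Hk2 -0.59. It was 1.46 for G6pdx to Pgd, 1.23 for Tkt to Taldo1, 0.87 for Pdha1 to Pdhb and 0.83 for Pkm to Pdha1. The libraries of the lines did not overlap in 10 of the 14 pairs, each with p = 0.1 in an exact 2-sided permutation test, the smallest that 3 against 3 libraries allow, and 0.14 after adjustment over the 14 pairs. No pair could therefore pass 0.05. Pdk1 to Pdk3 differed by -0.04 (exact p = 0.8), within the spread of the libraries.

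**Figure D4:**
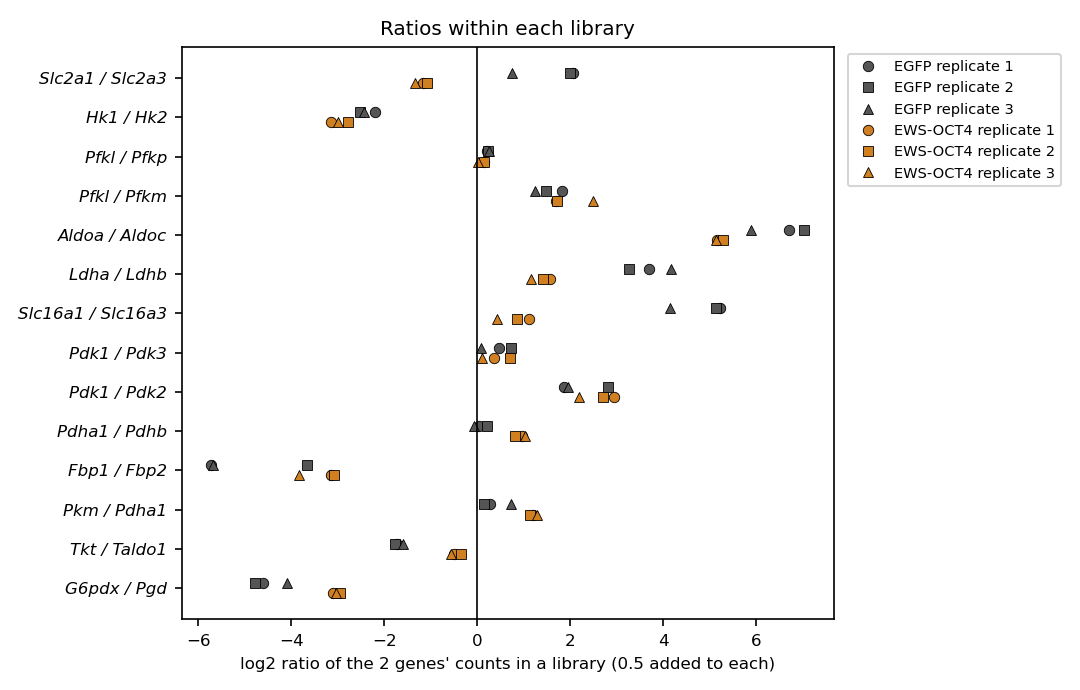
Log2 ratio of the counts of 2 genes in each library (x axis, 0.5 added to each count) for the 14 pairs on the y axis. The EGFP and EWS-OCT4 libraries lie apart for Slc16a1 to Slc16a3, Slc2a1 to Slc2a3 and Ldha to Ldhb, and overlap for Pdk1 to Pdk3.

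Genes that set the level of glycolytic genes were examined from a list of 22 regulators. All were tested, 8 rose, 9 fell and 5 did not pass (median -0.15), near the shares over all genes tested (33.3% higher, 34.1% lower). Hif1a and Epas1, named after their values were seen, encode the oxygen-regulated factors HIF-1α and HIF-2α, and their RNA fell from 111 ± 18.4 to 57.3 ± 4.89 CPM and from 18.8 ± 0.548 to 6.78 ± 0.423 CPM. Myc, an activator of many glycolytic genes, fell from 19.9 ± 5.82 to 0.733 ± 0.523 CPM, while its relatives Mycl and, named after its values were seen, Mycn rose from 1.10 ± 0.640 to 26.7 ± 9.14 CPM and from 22.7 ± 5.39 to 99.4 ± 25.0 CPM. Akt1, a kinase that promotes glucose uptake, fell from 712 ± 62.2 to 49.9 ± 8.03 CPM. Txnip, an inhibitor of glucose uptake that is induced by glucose, was at 54.1, 52.0 and 41.4 CPM in the EGFP line and at 523, 547 and 131 CPM in the EWS-OCT4 line, with EWS-OCT4 replicate 3 well below replicates 1 and 2. Esrrb, an orphan receptor that also activates metabolic genes, rose from 1.38 ± 0.358 to 418 ± 15.3 CPM.

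Genes outside glycolysis that hypoxia-inducible factors are known to induce were mostly lower. Of 20 listed, 19 were in the files and tested, 12 fell, 5 rose and 2 did not pass, while 34.1% of all genes tested fell and 33.3% rose. The median was -0.98, against 0.92 for the 36 tested genes above and 0.00 over all genes. Ndrg1, a stress-induced gene that is also known from trophoblast, fell from 717 ± 41.9 to 3.66 ± 1.54 CPM, Cited2, a regulator of these factors, from 336 ± 39.5 to 33.99 ± 3.44 CPM, and P4ha2, a collagen prolyl hydroxylase, from 45.95 ± 8.25 to 10.1 ± 0.489 CPM. Mxi1, a MYC antagonist, rose from 8.30 ± 3.46 to 40.7 ± 2.69 CPM and Plod2, a lysyl hydroxylase, from 8.62 ± 1.17 to 38.6 ± 1.06 CPM. The trophoblast markers moved in the same direction as the genes that fell, and their part was not tested.

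**Figure D5:**
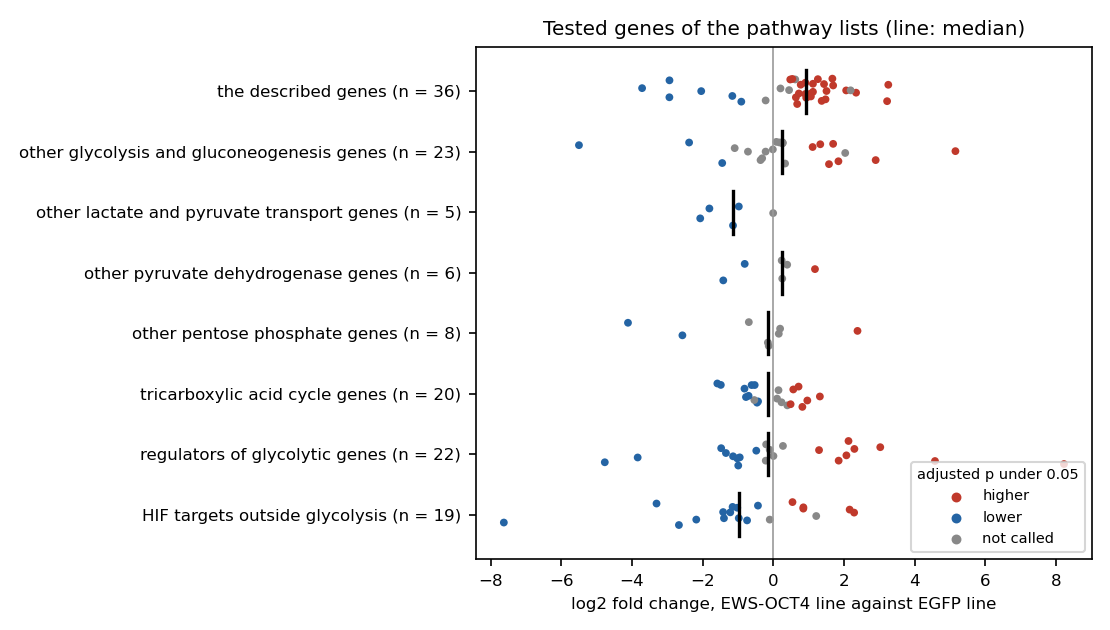
Log2 fold change (x axis, EWS-OCT4 line against EGFP line) of the tested genes of each list (y axis), coloured by the call, with the median as a black line. The median of the 36 genes described is 0.92, that of the lactate and pyruvate transport genes -1.14 and that of the targets outside glycolysis -0.98.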

How the data were processed

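RNA of 6 libraries, 3 per line, was measured with a Lexogen QuantSeq kit from 500 ng of total RNA, per the labels' protocols. Bowtie2, edgeR and mm10 are named, without versions or roles, in the submitters' processing notes. The deposited files held raw counts, 1 whole number for each symbol line. The sources used here do not give the counting tool, annotation or strand setting. The 35 symbols on several lines were summed, and each of the 38 genes stood on 1 line. Samples were grouped by title.

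Counts were TMM-scaled (factors 0.971 to 1.03), kept by filterByExpr at its minimum count of 10 and total of 15, and compared with the quasi-likelihood F test of edgeR 4.0.16, robust, 2-sided, with Benjamini-Hochberg adjustment over all genes tested at 0.05. The SE was the log2 fold change divided by the square root of F. The biological coefficient of variation was 19.3%. The test was also run on simulated counts. Few genes were changed there, whereas 67.4% of the genes tested passed here, so that run does not check the test in this setting. Depth was 10978025 to 14935887 counts, and 1 count stood for 0.0670 to 0.0911 CPM. Positions are from GENCODE M21 (GRCm38, the assembly of mm10), promoters from RefSeq (GRCm38.p6).

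Genes were given in full where called, changed at least 2-fold and with a mean of at least 10 CPM, or highest in their role. From other lists, up to 5 called genes of at least 5 CPM on average were named, by size of change. The genes, lists and tests were chosen with earlier results of these data known. Alternatives were other scalings, filters, tests (limma-voom with limma 3.58.1, DESeq2 1.42.0) and thresholds, a block on replicate number, and leaving out libraries. The chance that 2 genes share tags was described by 50-base stretches of the last 300 bases of the longest coding transcript, on both strands.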

Additional observations from a re-analysis of the deposited data

How the results depend on the processing

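Of 31 called genes, 22 kept their call and direction in all 18 alternatives. Slc2a8, Eno2 and Pdk2 kept theirs wherever they were tested, which leaves out the filter on a mean of 10 CPM. Whenever libraries were left out, 28 kept it. None of the 642 values of single genes turned direction, 22 lost the call and 17 gained it. Of the list, 19 genes (test against a 1.5-fold change) to 29 (upper-quartile scaling) were called higher and 6 or 7 lower, and 22 to 27 were called higher with 1 library left out. Among all genes, 6335 (mean of at least 10 CPM) to 10240 (libraries numbered 1 and 2 alone) were called, against 9073. The median log2 fold change of the list, 0.92, was 1.08 with upper-quartile scaling, which shifted the median of all genes to 0.16. It was 0.82 with a mean of at least 10 CPM, 1.04 with the libraries numbered 1 and 2 alone, and 0.87 to 1.04 with 1 library left out. The log2 ratio of Pdk1 to Pdk3, -0.04, turned direction without EGFP replicate 2 (0.11) or EWS-OCT4 replicate 3 (0.10), with a range of -0.21 to 0.11 over the libraries left out. The causes of these shifts were not tested. With the replicate block, 26 genes of the list rose and 6 fell, 8968 genes passed in all, and Slc2a3 passed (0.76, adjusted p = 0.024 by edgeR). The labels do not say whether same-numbered libraries share more than a number. The correlations of their deviations from the line means were 0.04, 0.05 and 0.15, and not every library correlated best with its own number. The libraries numbered 3 correlated at 0.15 with each other, and at -0.10 to -0.09 with numbers 1 and 2 of the other line. What the libraries numbered 3 share was not tested. Depth limits Pdk4 and Fbp1, which had few counts. The labels do not say whether libraries of a line were separate cultures.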

Other observations

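The tricarboxylic acid cycle, which takes up the acetyl-CoA made by pyruvate dehydrogenase, was not among the genes above and changed in both directions. Of the 20 genes listed for it, all tested, 6 rose, 9 fell and 5 did not pass, while 67.4% of all genes tested passed. The median was -0.16 on the log2 scale, against 0.00 over all genes tested. The list also held genes of cytosolic enzymes, Aco1 and Idh1 among them, and the counts include these. Aco1, the cytosolic aconitase that also senses iron, fell from 55.7 ± 12.3 to 18.6 ± 4.19 CPM, and Idh3b, a subunit of the NAD-dependent isocitrate dehydrogenase, from 257 ± 8.10 to 91.9 ± 12.1 CPM. Sdhb, the iron-sulfur subunit of succinate dehydrogenase, rose from 139.98 ± 5.58 to 349 ± 58.7 CPM, Idh1, the cytosolic isocitrate dehydrogenase, from 68.8 ± 20.04 to 134 ± 34.6 CPM, and Sdhc, a membrane anchor of succinate dehydrogenase, from 85.3 ± 4.198 to 151 ± 53.3 CPM. Sdhc was high in EWS-OCT4 replicates 1 and 2 (179.8 and 184 CPM), while replicate 3 (89.3 CPM) lay close to the EGFP libraries (80.5, 87.5 and 87.9 CPM). Idh1 was at 55.7, 58.8 and 91.9 CPM in the EGFP line and at 159, 149 and 94.6 CPM in the EWS-OCT4 line. Its libraries numbered 3 therefore lay close together.

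Neighbouring genes of the list did not always move together. Eno2 and Tpi1 lie 40912 bases apart on chromosome 6 (GRCm38), and Eno2 rose 9.31-fold while Tpi1 fell 2.23-fold. Gapdh, 347418 bases from Tpi1 on the same chromosome, rose 2.18-fold. Fbp1 and Fbp2 lie 6330 bases apart on chromosome 13, and only Fbp2 had enough counts to be tested. These pairs were chosen after their values were seen.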
